A study of Mus musculus with 12 samples.

Results

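The genes described here encode the enzymes and core proteins that lay down the hyaluronan and proteoglycan part of the cell coat and matrix. They are the hyaluronan synthases Has1 and Has2, the hyaluronan receptor Cd44, the large chondroitin sulfate proteoglycan versican (Vcan), the basement membrane proteoglycan perlecan (Hspg2), the 4 syndecans (Sdc1, Sdc2, Sdc3, Sdc4) and glypican-1 (Gpc1). They were chosen by symbol with earlier results of these data known, so the shares of all genes given below are a description and not a test of the 10 genes. All 10 are among the 23282 genes counted in each library. All 10 also passed the filter on low counts, which left 12425 genes for testing.

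Hyaluronan is a long unsulfated sugar chain that the Has enzymes spin out through the plasma membrane from UDP-glucuronic acid and UDP-N-acetylglucosamine. Outside the cell it is bound by CD44 and by versican, and the syndecans and glypicans carry heparan sulfate chains that hold growth factors and matrix proteins at the cell surface. In the lung these molecules are known for their build-up in injured and fibrotic tissue, and TGF-β is a well-known inducer of several of them.

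RNA was sequenced from C22 cells, a cloned mouse club cell line from H-2Kb-tsA58 transgenic mice, in which a temperature-sensitive SV40 T antigen allows growth in culture until the cells are made to differentiate. There were 4 groups of 3 libraries. NC cells were the negative control, NC + TGF-β1 cells received 20 ng/ml TGF-β1 for 24 h, siPdcd5 cells carried a knockdown of Pdcd5 (programmed cell death 5), and siPdcd5 + TGF-β1 cells received both. In all 4 groups the cells had been differentiated and then deprived of serum for 2 h. The untreated groups are recorded with 0 h of treatment, and whether they were kept for the same 24 h is not stated. Any part of time in culture in the differences with TGF-β1 was not tested. The comparisons ask how the genes responded to TGF-β1, how they differed after Pdcd5 knockdown, and whether the knockdown altered the response. Nothing in the labels says that replicates were separate cultures, so the p-values measure the spread between these libraries, which may be technical. In bulk RNA, fewer cells that express a gene and less of its RNA per cell cannot be told apart.

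Between 12809857 and 17714828 reads were counted per library, and levels are given as counts scaled to library size (CPM), on which 3 counts correspond to 0.165 to 0.239 CPM. This floor covers counting error only, whereas the 95% intervals below come from the edgeR fit and include the spread between libraries. Pdcd5 had 833 to 967 counts in the 6 libraries without knockdown and 283 to 392 counts in the 6 knockdown libraries. Its log2 fold change after knockdown was −1.69 without TGF-β1 and −1.49 with it (adjusted p = 1.09e-06 and 5.47e-06 by the quasi-likelihood test of edgeR, adjusted by Benjamini-Hochberg). Pdcd5-ps, a pseudogene, may share its reads. The secretory genes that define club cells were absent or nearly so. Scgb3a2 and Cyp2f2 had 0 counts in all 12 libraries and Scgb1a1 at most 1, whereas Aldh1a1 stood at 155 to 556 CPM and of 6 epithelial markers Krt8 and Krt18 stood at 171 CPM or more, Cdh1 and Krt7 between 1.48 and 4.03 CPM, and Krt19 and Epcam at no more than 4 and 1 counts. The 7 fibroblast markers summed to 3760 to 4005 CPM in NC, 7447 to 8064 in NC + TGF-β1, 2562 to 3137 in siPdcd5 and 5613 to 5971 in siPdcd5 + TGF-β1, almost all of it Col1a1 and Col3a1, with Lum at 1 count or fewer. The leukocyte gene Ptprc had at most 6 counts and the endothelial gene Cdh5 at most 1. The 6 epithelial markers summed to 676 to 699, 1242 to 1678, 549 to 700.0 and 1586 to 1647 CPM in the same order, and the 3 basal cell markers, almost all Krt14, to 10.2 to 11.98, 169 to 210, 1.92 to 4.51 and 75.2 to 88.0 CPM. The 6 club cell markers, almost all Aldh1a1, summed to 547 to 556, 231 to 245, 293 to 326 and 155 to 165 CPM. The fibroblast, epithelial and basal sums were thus higher and the club sum lower with TGF-β1. The epithelial sum was almost all Krt8 and Krt18, and a sum carried by few genes does not describe the other markers. Cdh1 (1.91 to 4.03 CPM) and Dcn (21.8 to 162 CPM) were both lowest in NC + TGF-β1 replicate 1. The part of other cell types in the changes below was not tested.

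Replicate 2 of NC + TGF-β1 and replicate 1 of siPdcd5 stood apart from the other libraries of their groups on the third principal component, which held 13.7% of the variance. Across the 12425 genes tested, the deviations of these 2 libraries from their group means had a Pearson r of 0.49, which describes genes within these libraries and is not a test. In both libraries Has1, Cd44, Hspg2, Sdc1 and Sdc3 lay above both other libraries of the group, and Has2, Vcan and Gpc1 lay below both. Of all genes tested, 40.4% and 40.6% lay above both others in the respective libraries and 41.9% and 39.2% below both, so these counts are near those of any genes. Sdc3 was 3.03 times the mean of the other siPdcd5 libraries, and Hspg2 was 1.69 and 1.58 times the mean of the others in the respective groups. Values without these libraries are given beside the results they moved most.

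**Figure D1:**
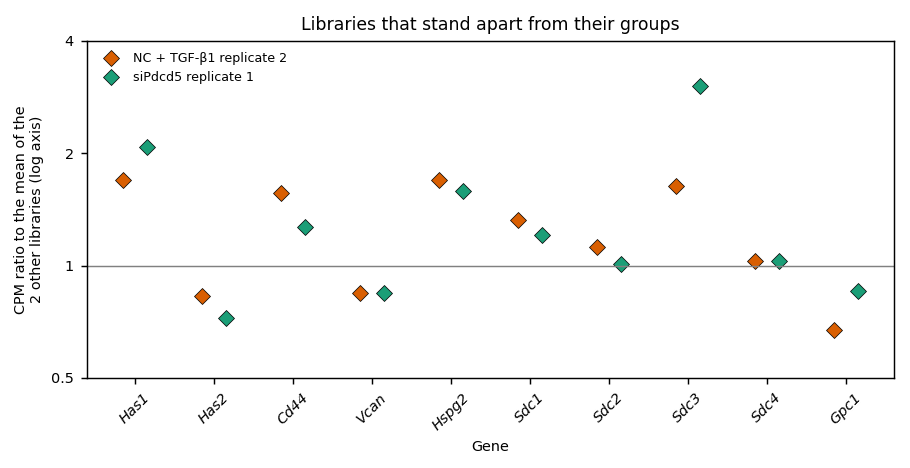
Level of each gene in NC + TGF-β1 replicate 2 (orange) and siPdcd5 replicate 1 (green) divided by the mean of the 2 other libraries of its group, on a log axis; the line marks a ratio of 1. Sdc3 was 3.03 times the mean of the others in siPdcd5 replicate 1, whereas Gpc1 was 0.671 times the mean of the others in NC + TGF-β1 replicate 2, and Sdc4 was close to 1 in both.

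In NC cells treated with TGF-β1, 6 of the 10 genes rose and none fell. Has2, Cd44, Vcan, Sdc1, Sdc3 and Gpc1 were higher at an adjusted p under 0.05 (the quasi-likelihood test of edgeR, adjusted by Benjamini-Hochberg over all genes), where 15.3% of the 12425 genes tested passed in either direction and 8.57% were higher. The 3 treated libraries lay wholly above the 3 NC libraries for these 6 genes and wholly below for none, where the groups did not overlap for 29.6% of all genes and the treated ones were above for 15.3%. Has1, Hspg2, Sdc2 and Sdc4 did not pass. The median log2 fold change was 0.92 over the 10 genes and 0.0050 over all genes tested. Has2, Cd44, Vcan, Sdc1 and Gpc1 passed under all 14 alternative settings, and Sdc3 under 11 of them.

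**Figure D2:**
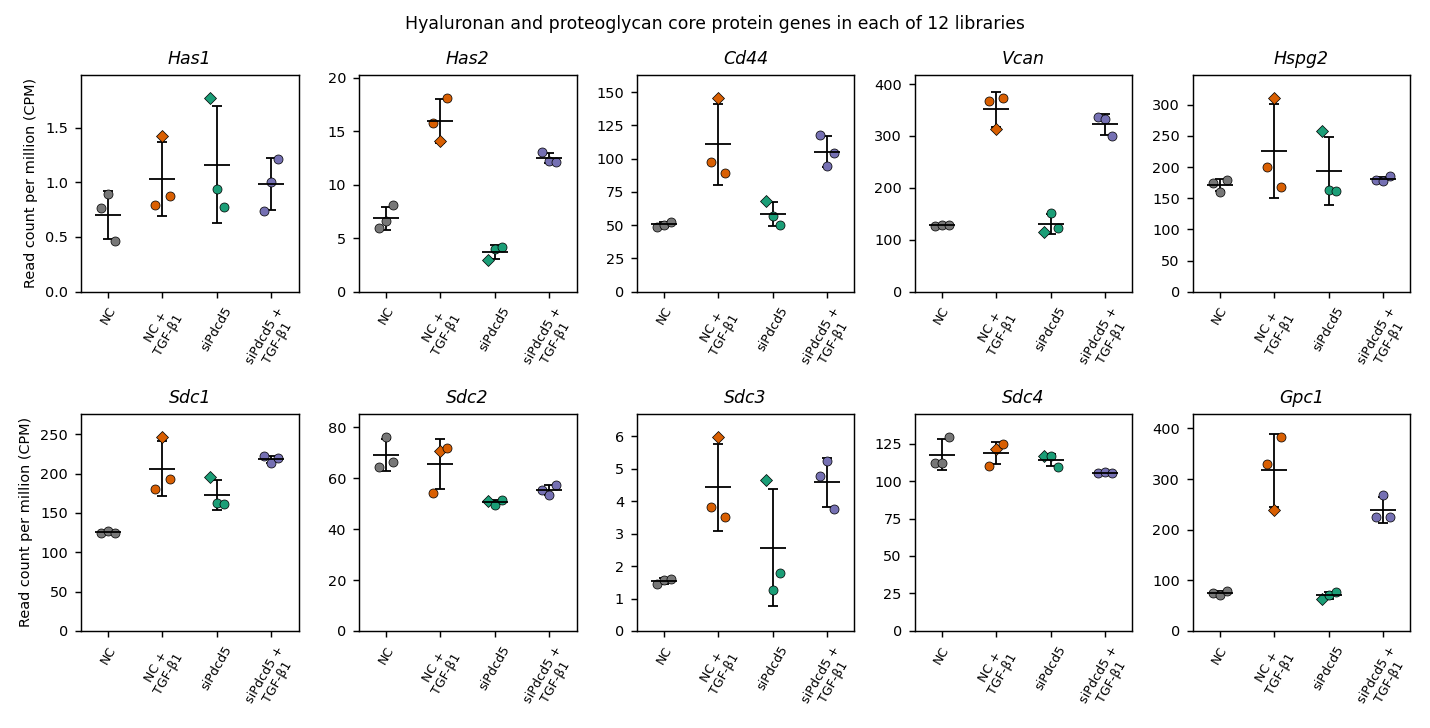
Level of each gene (CPM) in the 12 libraries, by group; points are libraries, horizontal lines the group means and bars the SD over 3 libraries. Diamonds mark NC + TGF-β1 replicate 2 and siPdcd5 replicate 1. The treated libraries lie above the untreated ones for Has2, Cd44, Vcan and Gpc1 with and without knockdown, and Sdc4 stays between 105 and 129 CPM in every library.

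The 250 bases upstream of the start site are printed for the risen genes that the RefSeq promoter table (GRCm38.p6) holds, so that the letters of known motifs can be seen where genes moved together. The table holds 7 of the 10 genes, without Has2, Sdc2 and Gpc1. Capitals mark CAGAC (the Smad-binding core, on either strand, so also GTCTG) and CANNTG (the E-box), and TGAGTCA (the AP-1 site) was searched as well. The sequences run 5′ to 3′ on the strand of the gene, which is the minus strand for Cd44 and Vcan.
Cd44, chr2:102901666-102901915: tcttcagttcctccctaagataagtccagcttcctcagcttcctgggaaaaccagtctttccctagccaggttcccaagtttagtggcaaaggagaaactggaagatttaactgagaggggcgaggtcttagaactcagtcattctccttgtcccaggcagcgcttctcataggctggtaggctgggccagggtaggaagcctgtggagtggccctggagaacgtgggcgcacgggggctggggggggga
Vcan, chr13:89742513-89742762: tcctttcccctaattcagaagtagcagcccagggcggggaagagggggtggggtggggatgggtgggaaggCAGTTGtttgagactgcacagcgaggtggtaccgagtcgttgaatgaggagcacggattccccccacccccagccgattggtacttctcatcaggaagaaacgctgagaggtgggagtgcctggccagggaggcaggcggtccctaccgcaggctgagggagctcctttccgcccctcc
Sdc1, chr12:8771146-8771322: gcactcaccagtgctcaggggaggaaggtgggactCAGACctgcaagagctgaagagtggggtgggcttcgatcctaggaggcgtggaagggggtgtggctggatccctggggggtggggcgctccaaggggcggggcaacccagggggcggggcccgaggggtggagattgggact
Sdc3, chr4:130792287-130792536: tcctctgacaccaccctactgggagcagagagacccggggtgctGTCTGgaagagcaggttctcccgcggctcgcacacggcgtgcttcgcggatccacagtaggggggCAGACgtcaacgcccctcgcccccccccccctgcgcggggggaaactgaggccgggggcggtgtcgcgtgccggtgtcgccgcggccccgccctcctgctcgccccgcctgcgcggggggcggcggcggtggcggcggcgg

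For Sdc1 the 177 bases before the annotated gene are shown, and the rest of its window, which holds its 1 E-box, is not. CAGAC occurred 1 time in the Sdc1 window, at −215 from the start site, and 2 times in that of Sdc3, at −206 and −141, with no overlap with an E-box. The windows of Cd44 and Vcan held none. Of the genes that did not pass the test, Has1 held 2 and Hspg2 and Sdc4 none. The Sdc4 window lies wholly within the annotated gene, and the Has1 site at −18 reaches into the annotated Has1 gene. CAGAC was found in 42.2% of all 32851 promoter windows of this length, CANNTG in 66.2% and TGAGTCA in 4.46%. None of the 7 windows held TGAGTCA. A match describes letters only and does not show that a factor binds there.

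Has2, the synthase that makes most of the high-molecular-weight hyaluronan of many cells, lies on chromosome 15 from 56665627 to 56694539 of GRCm38. It had 5.93, 6.60 and 8.06 CPM in the NC libraries and 15.8, 14.1 and 18.1 CPM in the NC + TGF-β1 libraries. In siPdcd5 it had 2.95, 3.97 and 4.18 CPM, and in siPdcd5 + TGF-β1 13.1, 12.3 and 12.2 CPM. No group overlapped another. The order was siPdcd5, NC, siPdcd5 + TGF-β1 and NC + TGF-β1, from lowest to highest, with means of 3.70 ± 0.658, 6.86 ± 1.09, 12.5 ± 0.505 and 16.0 ± 2.05 CPM (SD, n = 3 libraries each). TGF-β1 raised Has2 by 1.22 on the log2 scale in NC cells (standard error 0.17, adjusted p = 1.28e-04 by edgeR with Benjamini-Hochberg adjustment). Its exons overlap those of Has2os on the opposite strand, which had 13 to 27 counts in NC and 47 to 49 in NC + TGF-β1 against 78 to 105 and 188 to 248 for Has2. In siPdcd5 Has2os had 23 to 43 counts and in siPdcd5 + TGF-β1 58 to 61. Its mean was 1.60 CPM in NC and 2.00 CPM in siPdcd5, so it was not lower after knockdown as Has2 was. The counting is not stated to use strand, so the reads of the pair cannot be told apart.

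Has1 and Has3, the other synthases, were near the limit of detection. Has1 (chromosome 17, 17843323 to 17855205) had 6 to 24 counts per library, or 0.461 to 1.77 CPM, and its groups overlapped in every comparison. Its log2 fold change after TGF-β1 in NC cells was 0.55 with a 95% interval from −0.43 to 1.52, and without the 2 libraries that stood apart it was 0.24. A change was not detectable at this depth. Has3 had 9 to 32 counts per library and did not pass the test in any comparison.

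Cd44, which binds hyaluronan at the cell surface, lies on chromosome 2 from 102811141 to 102901665. It had 48.9, 50.4 and 52.5 CPM in NC and 97.2, 146 and 89.3 CPM in NC + TGF-β1. The siPdcd5 libraries had 68.1, 57.0 and 50.2 CPM and the siPdcd5 + TGF-β1 libraries 118, 94.3 and 104 CPM. Both treated groups lay above both untreated ones, whereas the treated groups overlapped each other and so did the untreated ones. The log2 fold change after TGF-β1 in NC cells was 1.13 (standard error 0.16, adjusted p = 2.29e-04 by edgeR with Benjamini-Hochberg adjustment) and 0.87 without the 2 libraries that stood apart. CD44 is made in many splice forms, which reads from the 3′ end do not separate.

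Vcan encodes the hyaluronan-binding proteoglycan of provisional matrix and lies on chromosome 13 from 89655312 to 89742509. The 3 NC libraries had 127, 128 and 129 CPM, and the NC + TGF-β1 libraries 368, 312 and 373 CPM. In siPdcd5 cells the levels were 116, 151 and 122 CPM, and with TGF-β1 336, 332 and 299.6 CPM. The treated libraries, at 299.6 CPM or more, stood clear of the untreated ones, at 151 CPM or less. In NC cells this was a rise of 1.46 on the log2 scale, or 2.75-fold (95% interval 2.34 to 3.22, adjusted p = 4.04e-07 by edgeR with Benjamini-Hochberg adjustment). As for Cd44, the versican isoforms, which differ in their chondroitin sulfate attachment regions, are not separated here.

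Hspg2, whose product perlecan carries heparan sulfate in basement membranes, lies on chromosome 4 from 137468769 to 137570630. It had 175, 159 and 179 CPM in NC, 199, 311 and 168 CPM in NC + TGF-β1, 257, 163 and 162 CPM in siPdcd5 and 180, 177 and 185 CPM in siPdcd5 + TGF-β1. The only values above 200 CPM were those of the 2 libraries that stood apart. The log2 fold change after TGF-β1 in NC cells was 0.40 (95% interval −0.03 to 0.84, adjusted p = 0.219 by edgeR with Benjamini-Hochberg adjustment), and 0.09 without these libraries.

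The 4 syndecans, transmembrane proteins that share a short cytoplasmic tail and differ in their outer part, did not move together. Sdc1, the syndecan typical of epithelia (chromosome 12, 8771323 to 8793715), had 125, 127 and 125 CPM in NC and 180, 246 and 193 CPM in NC + TGF-β1. It had 195, 163 and 162 CPM in siPdcd5 and 222, 213 and 220 CPM in siPdcd5 + TGF-β1. The NC libraries were the lowest, and siPdcd5 overlapped NC + TGF-β1. The log2 fold change after TGF-β1 in NC cells was 0.72 (standard error 0.11, adjusted p = 4.53e-04 by edgeR with Benjamini-Hochberg adjustment).

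Sdc3, known best from the nervous system (chromosome 4, 130792537 to 130826319), was low, with 19 to 80 counts per library. It had 1.44, 1.56 and 1.61 CPM in NC and 3.82, 5.98 and 3.51 CPM in NC + TGF-β1. It had 4.65, 1.27 and 1.80 CPM in siPdcd5 and 4.76, 5.25 and 3.76 CPM in siPdcd5 + TGF-β1. Apart from the first siPdcd5 library, the untreated libraries were all under 2 CPM and the treated ones all over 3 CPM. Its log2 fold change in NC cells was 1.52 (standard error 0.42, adjusted p = 0.0196 by edgeR with Benjamini-Hochberg adjustment). Without NC replicate 1, 2 or 3 the adjusted p was 0.073, 0.0669 and 0.0623 by the same edgeR test, with log2 fold changes of 1.48, 1.53 and 1.55. Without the 2 libraries that stood apart the log2 fold change was 1.24 and passed. Exons of Sdc3 overlap Gm12970 and Gm26716 on the opposite strand.

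Sdc2 and Sdc4 did not respond detectably. Sdc2, common in mesenchymal cells (chromosome 15, 32920723 to 33034935), had 64.3, 76.1 and 66.5 CPM in NC, 54.1, 70.5 and 71.8 CPM in NC + TGF-β1, 50.9, 49.6 and 51.4 CPM in siPdcd5 and 55.2, 53.2 and 57.4 CPM in siPdcd5 + TGF-β1. The knockdown libraries sat in a narrow band, below every NC library and at the lower end of the NC + TGF-β1 libraries. Its log2 fold change after TGF-β1 in NC cells was −0.08 (95% interval −0.31 to 0.16). Sdc4, a syndecan of focal adhesions (chromosome 2, 164424247 to 164443887), stayed between 105 and 129 CPM in all 12 libraries. Its log2 fold change of 0.01 had an interval from −0.17 to 0.20, and its sign depended on the scaling, with −0.02 by upper-quartile factors.

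Gpc1, a heparan sulfate proteoglycan held in the membrane by a lipid anchor, lies on chromosome 1 from 92831645 to 92860779 and had the largest log2 fold change of the 10 genes after TGF-β1 in NC cells. It had 74.8, 70.5 and 78.7 CPM in NC and 330, 239 and 383 CPM in NC + TGF-β1. In siPdcd5 it had 63.5, 71.9 and 77.0 CPM and in siPdcd5 + TGF-β1 225, 269 and 225 CPM. Every treated library was above 220 CPM and every untreated one below 80. In NC cells the rise was 2.09 on the log2 scale, or 4.25-fold (95% interval 3.43 to 5.27, adjusted p = 2.5e-07 by edgeR with Benjamini-Hochberg adjustment), which ranked number 89 among the 12425 genes tested. Ankmy1, whose exons overlap Gpc1 on the opposite strand, had at most 1 count in any library.

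In knockdown cells TGF-β1 raised 4 of the 10 genes, Has2, Cd44, Vcan and Gpc1, where 16.1% of all genes tested passed and 8.5% were higher (the quasi-likelihood test of edgeR, adjusted by Benjamini-Hochberg). The log2 fold changes were 1.75 for Has2, 0.85 for Cd44, 1.31 for Vcan and 1.76 for Gpc1, with standard errors of 0.18, 0.16, 0.11 and 0.14. The adjusted p values were 7.52e-06, 0.00223, 1.15e-06 and 1.34e-06 (same edgeR test). Sdc1 (0.33, adjusted p = 0.059) and Sdc3 (0.87, adjusted p = 0.145) did not pass in the edgeR test. Without siPdcd5 replicate 1, which held the high Sdc1 and Sdc3 values, both passed, with log2 fold changes of 0.44 and 1.59 and adjusted p values of 0.0229 and 0.00317 by edgeR. At an unadjusted p under 0.05 these 6 genes passed by edgeR, against 28.9% of all genes. The groups did not overlap for 7 of the 10 genes, against 36.1% of all genes (17.9% higher and 18.1% lower). Of these 7, 6 were higher (Has2, Cd44, Vcan, Gpc1, Sdc1 and Sdc2) and 1 lower (Sdc4), whereas Sdc3 overlapped. The median log2 fold change was 0.59 over the 10 genes and −0.03 over all genes. The 2 TGF-β1 comparisons share no libraries, whereas each knockdown comparison below shares a group with each of them.

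**Figure D3:**
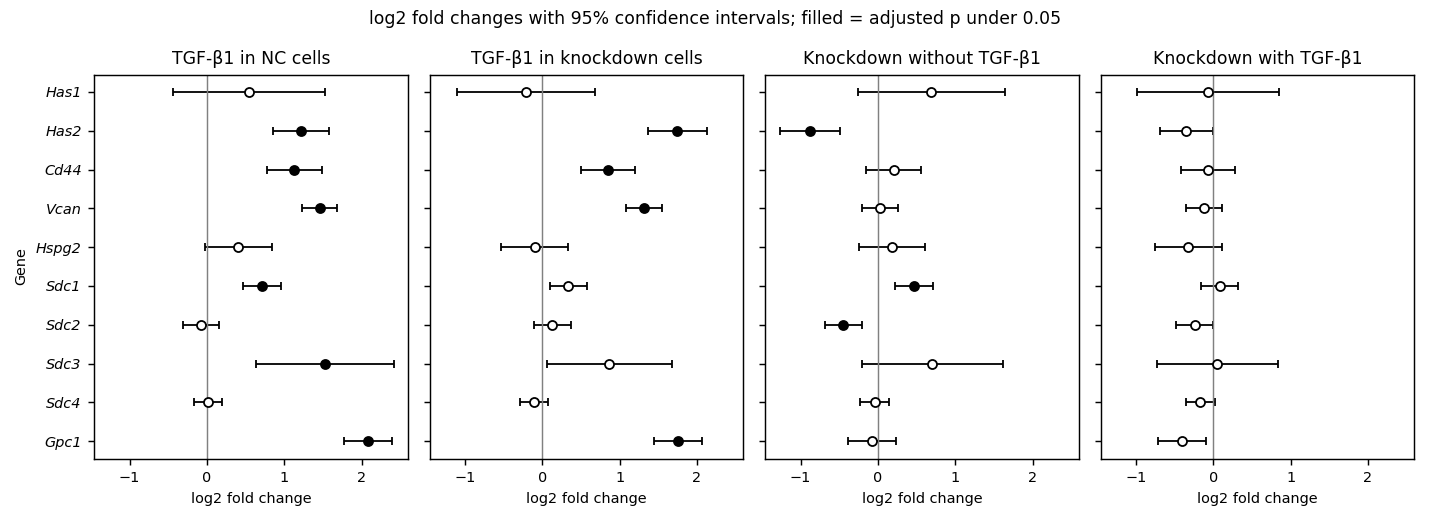
Log2 fold changes of the 10 genes in the 4 comparisons, with 95% confidence intervals from the edgeR fit; filled points passed an adjusted p of 0.05. Gpc1, Vcan, Has2 and Cd44 are filled in both TGF-β1 panels, 3 genes are filled for knockdown without TGF-β1 and none for knockdown with it.

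Pdcd5 knockdown without TGF-β1 changed 3 of the 10 genes, against 3.44% of all genes tested (0.901% higher and 2.54% lower). Has2 fell by 0.88 and Sdc2 fell by 0.45 on the log2 scale, and Sdc1 rose by 0.46 (standard errors 0.18, 0.11 and 0.11). Their adjusted p values were 0.0153, 0.0423 and 0.0373 by the quasi-likelihood test of edgeR, adjusted by Benjamini-Hochberg. The 3 siPdcd5 libraries lay wholly outside the range of the NC libraries for these genes and no others among the 10, against 23.1% of all genes. These calls were near the threshold. When single libraries were left out, 0 or 1 of the genes passed, with adjusted p values of up to 0.0793 for Has2, 0.148 for Sdc1 and 0.202 for Sdc2 (edgeR), while no direction turned. Without the 2 libraries that stood apart all 3 passed, at −0.76, 0.36 and −0.46 for Has2, Sdc1 and Sdc2. Vcan (0.02, 95% interval −0.21 to 0.25) and Sdc4 (−0.04, −0.23 to 0.14) had narrow intervals around 0, and that of Gpc1 (−0.08, −0.39 to 0.24) was wider. Those of Cd44 (0.21, −0.15 to 0.56), Hspg2 (0.18, −0.25 to 0.61), Sdc3 (0.70, −0.21 to 1.62) and Has1 (0.69, −0.26 to 1.64) were wider still. Without the 2 libraries that stood apart these 4 were at 0.08, −0.08, −0.02 and 0.28, and none passed by edgeR.

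In cells given TGF-β1, knockdown changed 0 of the 10 genes at an adjusted p under 0.05 by edgeR, against 1.55% of all genes, and 0 by DESeq2's Wald test. At an unadjusted p under 0.05 there were 3, against 13.8% of all genes. These were Has2 (−0.35, 95% interval −0.70 to −0.01), Sdc2 (−0.24, −0.48 to −0.0049) and Gpc1 (−0.41, −0.71 to −0.10), with adjusted p values of 0.346, 0.351 and 0.203 by edgeR. Only Has2 and Sdc4 had no overlap between the groups, both lower, against 18.9% of all genes (8.84% higher and 10% lower). The Gpc1 value depended on single NC + TGF-β1 libraries in both directions. Replicate 2, at 239 CPM, lay within the knockdown range, and without it the log2 fold change was −0.57 (adjusted p = 0.00764 by edgeR with Benjamini-Hochberg adjustment). Without replicate 3, at 383 CPM, it was −0.25 (adjusted p = 0.406 by edgeR). Without both libraries that stood apart Gpc1 was again at −0.57 and Sdc1 at 0.23, with adjusted p values of 1.26e-04 and 0.0452 by edgeR. The values of the others were 0.08 for Sdc1, −0.07 for Cd44, −0.12 for Vcan, −0.32 for Hspg2, 0.05 for Sdc3, −0.17 for Sdc4 and −0.07 for Has1. Without both libraries that stood apart those of Hspg2, Vcan, Cd44, Has1 and Sdc3 were −0.02, −0.19, 0.18, 0.23 and 0.33, and none of these passed.

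The response of knockdown cells minus that of NC cells, tested as an interaction, passed for 0 of the 10 genes and for 0 of the 12425 tested by edgeR, with a smallest adjusted p of 0.213 over all genes. DESeq2's Wald test called 15 genes, none of the 10. At an unadjusted p under 0.05 there were 2 of the 10, against 5.13% of all genes. Has2 rose more in knockdown cells (0.53 on the log2 scale, 95% interval 0.0074 to 1.05) and Sdc1 less (−0.38, −0.72 to −0.04), both with an adjusted p of 0.951 by edgeR. For Vcan (−0.14) the interval ran from −0.47 to 0.18, for Cd44 (−0.28) from −0.78 to 0.22 and for Gpc1 (−0.33) from −0.77 to 0.11. Without the 2 libraries that stood apart the difference for Gpc1 was −0.56 and passed (adjusted p = 0.0267 by edgeR with Benjamini-Hochberg adjustment), and those for Has2, Sdc1 and Vcan, which did not, were 0.32, −0.13 and −0.29. Those for Has1, Hspg2 and Sdc3 went from −0.76, −0.51 and −0.66 to −0.04, 0.0594 and 0.35. The part of these libraries in the results was not tested further.

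Of the other genes of hyaluronan and proteoglycan metabolism 62 were tested, and they moved in both directions. After TGF-β1 in NC cells 18 rose and 8 fell by the edgeR test, against 8.57% and 6.77% of all genes, with a median log2 fold change of 0.21. In knockdown cells 11 were higher and 6 lower, against 8.5% and 7.61%, with a median of 0.19. The 18 include Tnfaip6 and Sdcbp2, and the 11 include Tnfaip6. Both genes passed the filter on low counts through libraries in which they were high. The values that follow are log2 fold changes after TGF-β1 in NC cells unless stated, and every gene said to rise or fall passed the edgeR test. Calls of these 62 genes were not followed under the alternative settings. Those of Uap1, Ust, Glce and Ugp2 were near the threshold, at adjusted p values of 0.045, 0.045, 0.0427 and 0.0369 by edgeR. Exons of Stab1, Ezr, Chsy1, Chpf2, Ugp2, Fam20b and Msn overlap genes on the opposite strand. Those of Ugdh, Glce and Chpf2 overlap genes on their own strand, so reads of all these may be shared.

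Among the 8 genes that supply UDP-sugars, Ugdh, which makes UDP-glucuronic acid, rose by 0.50 and Uap1, which makes UDP-N-acetylglucosamine, by 0.67, while Ugp2, which makes UDP-glucose, fell by 0.43. The median of the list was 0.43. In knockdown cells Ugdh rose by 0.73 and Ugp2 fell by 0.40. Of the 4 hyaluronan turnover genes tested, Hyal1, a lysosomal hyaluronidase, rose by 0.94, from 46 to 55 counts per library to 91 to 105. Its exons are shared in part with Naa80 and Hyal3, and its reads are uncertain. Cemip, which is needed for hyaluronan breakdown in many cells, fell by 0.89. Cemip had 36.5 to 51.2 CPM in NC, 22.2 to 25.5 in NC + TGF-β1, 16.5 to 23.7 in siPdcd5 and 14.97 to 18.4 in siPdcd5 + TGF-β1. It was thus highest in untreated NC cells, and knockdown without TGF-β1 lowered it (−1.14, standard error 0.15, adjusted p = 9.39e-04 by edgeR with Benjamini-Hochberg adjustment).

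The 5 hyaluronan-binding genes tested beside Cd44 went in opposite directions. Tnfaip6 encodes TSG-6, which transfers protein chains onto hyaluronan, and had 5 to 17 counts in NC and 54 to 68 in NC + TGF-β1, a rise of 2.59. It rose by 3.51 in knockdown cells, from 2 to 9 counts to 50 to 71. Tnfaip6 passed the filter on low counts through the treated libraries, in which it was high, so the size of its rise is uncertain. Stab1, a scavenger receptor that takes up hyaluronan, rose by 1.33 and, in knockdown cells, by 0.97. Ptx3, a pentraxin that takes part in cross-linking hyaluronan with TSG-6, had 23.3 to 32.6 CPM in NC, 5.56 to 9.34 in NC + TGF-β1, 10.04 to 10.8 in siPdcd5 and 4.32 to 5.50 in siPdcd5 + TGF-β1. It fell with TGF-β1 in NC cells (−1.88, adjusted p = 5.85e-06) and with knockdown without TGF-β1 (−1.38, adjusted p = 7.32e-04, both by edgeR with Benjamini-Hochberg adjustment). With TGF-β1 the knockdown value was −0.55 and did not pass (adjusted p = 0.218 by edgeR). Hmmr, a hyaluronan receptor that also acts at the mitotic spindle, fell by 0.74. Of the 4 genes of the versican family only Vcan passed the filter.

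Col18a1, a basement membrane collagen that carries heparan sulfate, rose by 0.64, and agrin (Agrn), at 0.27, did not pass (adjusted p = 0.0813 by edgeR). Gpc6 was the only other glypican tested. It fell from 23.9 to 26.9 CPM in NC to 11.5 to 15.1 CPM in NC + TGF-β1 (−0.96, standard error 0.13, adjusted p = 1.09e-04 by edgeR with Benjamini-Hochberg adjustment), opposite in direction to Gpc1, and fell by 0.84 in knockdown cells.

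For the sugar chains, 1 of 5 linker genes (Fam20b, a xylose kinase, 0.44), 3 of 14 heparan sulfate genes and 6 of 12 chondroitin and dermatan sulfate genes rose. The medians were 0.11, 0.07 and 0.40. Chsy1, a chondroitin synthase, went from 21.5 to 24.5 CPM in NC to 75.1 to 78.5 CPM in NC + TGF-β1, a rise of 1.73 (standard error 0.09, adjusted p = 1.93e-08 by edgeR with Benjamini-Hochberg adjustment). Chpf and Chpf2, polymerizing factors, rose by 0.57 and 0.32. The sulfotransferases Chst7, Chst11 and Ust rose by 0.92, 0.83 and 0.83, whereas Csgalnact1, which starts chondroitin chains, fell by 0.57. Among heparan sulfate genes, Hs2st1, the uronyl 2-O-sulfotransferase, had 148 to 162 CPM in NC and 323 to 348 CPM in NC + TGF-β1, a rise of 1.14 (standard error 0.08, adjusted p = 1.82e-07 by edgeR with Benjamini-Hochberg adjustment). Ext1, a chain polymerase, rose by 0.95 and Glce, the epimerase, by 0.65, and the 3-O-sulfotransferase Hs3st1 fell by 1.06. None of the 3 genes for heparan sulfate editing passed in NC cells, and Sulf1 rose by 1.01 in knockdown cells. Of the 7 cytoplasmic partners, moesin (Msn) rose by 0.97 and Sdcbp2, at 3 to 24 counts in these 6 libraries, by 2.04, and ezrin (Ezr) fell by 0.79. Sdcbp2 had 3 to 6 counts in NC and passed the filter on low counts through the other libraries, in which it was higher. The size of its rise is uncertain.

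**Figure D4:**
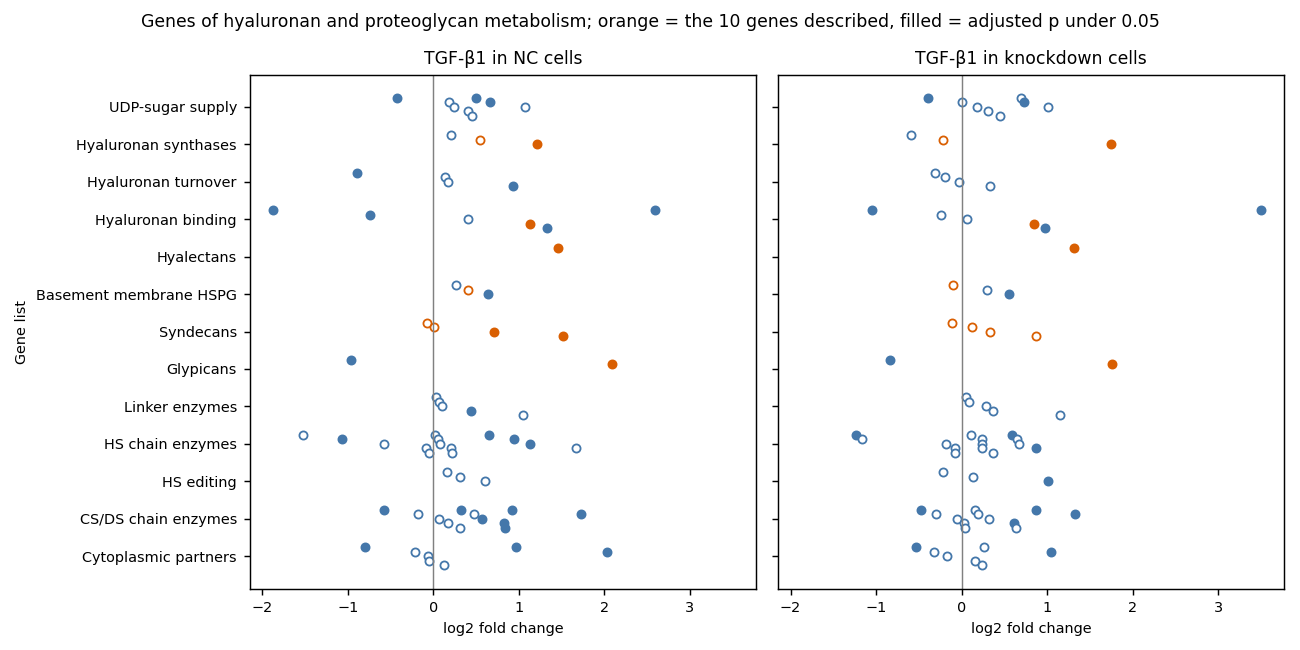
Log2 fold change after TGF-β1 of each gene tested, by list, in NC cells (left) and knockdown cells (right); orange points are the 10 genes described, filled points passed an adjusted p of 0.05. Tnfaip6, which had few counts in the untreated libraries, lies farthest to the right in both panels, at 2.59 and 3.51, and Ptx3 farthest to the left in NC cells, at −1.88.

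Knockdown without TGF-β1 raised 2 of these 62 genes and lowered 6, against 0.901% and 2.54% of all genes. With TGF-β1 it raised 1 and lowered 2, against 0.33% and 1.22%. Hs2st1 had 120 to 132 CPM in siPdcd5 and 227 to 233 CPM in siPdcd5 + TGF-β1, which was lower than the matching NC group without TGF-β1 (−0.30, adjusted p = 0.0482) and with it (−0.56, adjusted p = 0.00163, both by edgeR with Benjamini-Hochberg adjustment). Sulf1, a sulfatase that trims heparan sulfate at the cell surface, had 67 to 86 counts in NC and 28 to 39 in siPdcd5 (−1.37). It had 100 to 136 in NC + TGF-β1 and 50 to 87 in siPdcd5 + TGF-β1 (−0.96). Sulf1 passed the edgeR test in both settings, with adjusted p values of 0.00549 without TGF-β1 and 0.0478 with it, the second near the threshold. The 6-O-sulfotransferase Hs6st2 was higher with knockdown in both settings, but from 0 to 4 counts in NC to 16 to 25 in siPdcd5, and from 6 to 9 to 27 to 34 with TGF-β1. It passed the filter on low counts only through the knockdown libraries, in which it was high, so its calls are a description only. It is 1 of the 2 genes counted as raised without TGF-β1 and the only 1 with it. Without TGF-β1, Ezr and Csgalnact1 also fell, by 0.56 and 0.62, and Chsy1 rose by 0.37 (adjusted p = 0.00593, 0.0308 and 0.0477 by edgeR). The calls of Csgalnact1 and Chsy1, like that of Hs2st1 without TGF-β1, were near the threshold. None of these calls was followed under the alternative settings.

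Over the 12 libraries, the genes whose levels followed each pattern most closely were found among 9128 well-expressed genes by the root mean square difference of log2 CPM from each gene's own mean, given here as a description of libraries that share groups. Krt8 was closest to Vcan (0.080), Bhlhe40 to Cd44 (0.092) and Timp3 to Has2 (0.16). Vwa1 was closest to Gpc1 (0.17), Dpy19l1 to Sdc1 (0.13), Igf1r to Sdc2 (0.096) and Ctla2b to Sdc3 (0.19). The next closest were Fam132b for Vcan, Clic4 for Cd44, Chac1 for Has2, Atp1b1 for Gpc1, Mfsd7b for Sdc1, Il6st for Sdc2 and Scx for Sdc3. The differences of the median gene were 0.72 from Vcan, 0.56 from Cd44, 0.84 from Has2, 0.99 from Gpc1, 0.38 from Sdc1, 0.29 from Sdc2 and 0.77 from Sdc3.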

How the data were processed

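Total RNA of 12 libraries, 4 groups of 3, was sequenced by QuantSeq 3′ mRNA-seq. The authors aligned the reads by Bowtie2 and used Bedtools to count alignments, unique and multiple, on each gene. The deposited values are raw read counts per gene symbol. Their processing notes name mm10 (GRCm38); the annotation and the use of strand are not given in the sources used here. Of 23282 genes, 44 repeat a symbol and were kept as separate entries. With R 4.3.3 and edgeR 4.0.16, counts were filtered (filterByExpr), scaled by TMM and fitted with glmQLFit over the 4 groups (square root of the common dispersion 0.132). Each comparison was a contrast tested by glmQLFTest with Benjamini-Hochberg adjustment over 12425 genes. Log2 CPM used a prior count of 2.

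The text names the 10 genes, Pdcd5, the genes of the lists that passed the test in a comparison, and the 2 genes closest in pattern to each that changed. Agrn, Has3, the marker genes and the overlapping genes were named after their values were seen. The genes and lists were chosen with earlier results of these data known. Alternatives were upper-quartile factors, no filter, at least 10 counts in every library, the replicate block, DESeq2 1.42.0, quantile normalization with limma-trend (limma 3.58.1), only the 6 libraries compared and each library left out. Leaving out both libraries that stood apart was chosen after seeing the data. The scripts were tested on simulated counts. Gene positions are those of GENCODE on GRCm38, and promoters those of RefSeq on GRCm38.p6.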

Additional observations from a re-analysis of the deposited data

How the results depend on the processing

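Has2, Cd44, Vcan and Gpc1 kept their rise with TGF-β1, and passed, under all 14 alternatives in NC and in knockdown cells. Of 744 values recomputed, 679 kept their direction and side of the threshold. Over all genes, those changed by TGF-β1 in NC cells numbered 1906, 3663 without both libraries that stood apart and 1391 to 2554 with single libraries left out. In knockdown cells they numbered 2002, 3139 without both and 1371 to 1737. For knockdown without TGF-β1 the 427 genes became 714 with DESeq2, 1146 without both and 167 to 324, and the 3 of the 10 genes became 0 to 1 with single libraries left out. With only the 6 libraries compared Has2 did not pass there (adjusted p = 0.0519 by edgeR). For knockdown with TGF-β1 the 192 genes became 459 with DESeq2, 44 with only the 6 libraries compared, 1062 without both and 73 to 322, of the 10 genes 2 without both and 0 to 1. Quantile normalization gave 51 higher and 110 lower, against 41 and 151. For the difference of the responses 0 genes became 15 with DESeq2, 200 (1 of the 10) without both and 0 to 2. Same-numbered libraries deviated together with r from 0.0074 to 0.17 in the NC comparison and from −0.32 to −0.04 in the knockdown comparison with TGF-β1, and 5, 1, 0 and 2 of 6 libraries correlated best with their own number in the 4 comparisons, in the order below, so the numbers were not taken to pair them. With the replicate block, 1687, 301, 107, 1731 and 0 genes were called for TGF-β1 in NC cells, knockdown without and with TGF-β1, TGF-β1 in knockdown cells and the difference. Of the 10 genes 1 passed for knockdown without TGF-β1 under the block, with Sdc1 and Sdc2 at adjusted p values of 0.0728 and 0.0644 by edgeR. Directions turned only for values that had not passed. Sdc4 with TGF-β1 in NC cells was −0.0222 by upper-quartile factors, −0.0023 without a filter, −0.0442 by quantile normalization, −0.0105 without both libraries and −0.0234 to 0.0786 with single libraries left out, and Sdc2 there −0.14 to 0.0436. Knockdown without TGF-β1 gave −0.0792 for Hspg2 and −0.0193 for Sdc3 without both, and with single libraries left out −0.0774 to 0.29 for Hspg2, −0.0162 to 1.05 for Sdc3, −0.0802 to 0.0218 for Sdc4 and −0.10 to 0.10 for Vcan. Knockdown with TGF-β1 gave 0.0056 for Has1 by quantile normalization, 0.23 for Has1 and 0.18 for Cd44 without both, and −0.25 to 0.23 for Has1, −0.21 to 0.18 for Cd44, −0.0064 to 0.23 for Sdc1 and −0.10 to 0.32 for Sdc3 with single libraries left out. TGF-β1 in knockdown cells gave 0.19 for Has1 and 0.15 for Hspg2 without both, and −0.43 to 0.20 and −0.22 to 0.16. The difference was 0.10 for Cd44, 0.0594 for Hspg2 and 0.35 for Sdc3 without both, and −1.002 to 0.0707 for Sdc3. The causes were not tested. Has1 and Sdc3 had the fewest counts, 6 to 24 and 19 to 80 per library, and the widest intervals.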
